A study of Mus musculus with 14 samples.

Results

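The Hox cluster genes of the mouse were followed through peak lists of 2 histone marks in the kidney. They were taken as every protein-coding gene of the RefSeq table (assembly GRCm38.p6) whose symbol is Hoxa, Hoxb, Hoxc or Hoxd followed by a number, which gave 39 genes of 21887 protein-coding genes. The Hoxa cluster held 11 genes (chr6:52155367-52260880), Hoxb 10 (chr11:96194316-96368254), Hoxc 9 (chr15:102921131-103036856) and Hoxd 9 (chr2:74668225-74765142). Chromatin immunoprecipitation with sequencing (ChIP-seq) had been done on kidneys of C57BL/6J mice aged 6 to 8 weeks with antibodies to histone H3 crotonylated (H3K9cr) or acetylated (H3K9ac) at lysine 9. The mice were wild type (WT) or carried a whole-body CRISPR/Cas9 knockout of ACSS2 (ACSS2-/-), an enzyme that makes crotonyl-CoA and acetyl-CoA, and had either a control operation or unilateral ureteral obstruction (UUO), in which the left ureter is tied off and the kidney becomes fibrotic, for a time that the sources used here do not give for these libraries. H3K9cr was measured in 2 libraries of each of the 4 groups, and H3K9ac in 2 libraries of each UUO group and 1 library, named replicate 2, of each control group. The study asked how H3K9cr and H3K9ac differ between operations and genotypes. The whole kidney was used, so fewer cells of a type and less of a mark per cell cannot be told apart.

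Hox genes encode homeodomain transcription factors that give cells of the embryo their position along the head-to-tail axis. Within a cluster the genes lie in the order in which they act, with low numbers active towards the head and high numbers towards the tail. The cells of an adult organ keep part of that pattern, and the Hox11 genes (Hoxa11, Hoxc11, Hoxd11) are needed together for the embryonic kidney to form. Acylated H3K9 is found at active promoters and enhancers, and clusters that are silent carry Polycomb proteins in its place.

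The peak lists gave positions only, without heights, so the measure used was cover, the percent of bases that lay under a peak. A gene was said to have a peak when one overlapped the 3 kb on either side of one of its ends. Neighbouring Hox genes lie closer than that and some gene models are nested, so 1 peak could count for several genes. The lists held 15988 to 45014 peaks. UUO libraries mostly held fewer covered bases than control libraries, and H3K9ac lists were shorter (15988 to 32760 peaks) than H3K9cr lists (27530 to 45014). Acss2 had a peak in all 14 libraries, ACSS2-/- included, which is no check of the deletion since the mark can lie outside the deleted part. The 8 proximal tubule markers checked had a peak in every control library of both marks and 3 to 6 of them did in UUO libraries, while 2 to 3 of the 6 leukocyte markers had one in H3K9cr control libraries and 5 to 6 in H3K9cr UUO libraries. For H3K9ac the leukocyte counts overlapped, at 3 to 4 in control and 4 to 6 after UUO. Peaks at Y-linked genes were present in 4 of the 8 H3K9cr libraries and 2 of the 6 H3K9ac libraries, and groups held libraries with and without them (the sex of the mice is not in the labels). The number carried in the peak names differed from the labelled replicate number in 4 of the 14 libraries. ACSS2-/- UUO H3K9ac replicate 2 stood apart from the other H3K9ac UUO libraries, with 24571 peaks against 15988 to 18580.

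Some genes lay inside the covered block of their cluster and others outside it. The promoters of 2 genes in the Hoxd cluster and 2 in the Hoxa cluster show that contrast at the level of sequence: Hoxd9 and Hoxa9 had peaks over the start in all 14 libraries, Hoxd13 and Hoxa13 in none. The 250 bases before each start are printed 5′ to 3′ from RefSeq (GRCm38.p6), with CG dinucleotides in capitals.
Hoxd9 (chr2:74697513-74697762, plus strand): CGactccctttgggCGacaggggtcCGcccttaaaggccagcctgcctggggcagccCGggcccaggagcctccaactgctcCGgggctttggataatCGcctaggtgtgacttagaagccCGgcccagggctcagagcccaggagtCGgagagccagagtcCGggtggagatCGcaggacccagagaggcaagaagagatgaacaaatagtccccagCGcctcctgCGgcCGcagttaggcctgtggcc
Hoxd13 (chr2:74667975-74668224, plus strand): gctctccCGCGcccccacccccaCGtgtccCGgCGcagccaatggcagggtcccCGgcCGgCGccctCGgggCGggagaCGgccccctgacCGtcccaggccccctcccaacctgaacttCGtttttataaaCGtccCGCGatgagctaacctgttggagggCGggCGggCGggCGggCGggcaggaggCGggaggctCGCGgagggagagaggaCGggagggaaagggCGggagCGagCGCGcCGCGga
Hoxa9 (chr6:52227371-52227620, minus strand): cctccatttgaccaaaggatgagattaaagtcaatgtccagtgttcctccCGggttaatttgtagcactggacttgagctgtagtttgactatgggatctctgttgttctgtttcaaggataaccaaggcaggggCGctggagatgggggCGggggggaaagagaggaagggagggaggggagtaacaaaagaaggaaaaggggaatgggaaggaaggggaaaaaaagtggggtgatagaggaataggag
Hoxa13 (chr6:52260881-52261130, minus strand): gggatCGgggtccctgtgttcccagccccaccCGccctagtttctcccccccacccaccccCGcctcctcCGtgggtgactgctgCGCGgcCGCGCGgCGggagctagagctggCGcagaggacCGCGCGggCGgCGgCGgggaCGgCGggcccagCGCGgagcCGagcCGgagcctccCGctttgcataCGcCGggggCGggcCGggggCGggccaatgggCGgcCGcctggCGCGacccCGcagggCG
The 2 promoters without a peak were the richer in CG, with 31 for Hoxd13 and 35 for Hoxa13 against 13 for Hoxd9 and 3 for Hoxa9. The promoter table gave 24 promoters of 22 of the 39 genes, each 300 bases from 250 before to 50 after the start. Over those 300 bases the Hox promoters held a median of 14.5 CG, and all 32851 promoters a median of 7. The 10 Hox promoters covered in all 14 libraries held 4 to 22 CG, and the 4 covered in none (Hoxa13, Hoxb1, Hoxd12 and Hoxd13) held 10 to 45.

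Peaks lay on most Hox genes in every library. In H3K9cr libraries 30 to 33 of the 39 genes had a peak, and in H3K9ac libraries 27 to 34, which is 69.2% to 87.2% of the family against 53.0% to 62.5% of all protein-coding genes. A peak in every H3K9cr library was found at 29 Hox genes, against 53.8% of all protein-coding genes, and in every H3K9ac library at 27, against 49.8%. A peak in no H3K9cr library was found at 6 genes, against 32.4% of all, and in no H3K9ac library at 5, against 34.7%. The 27 genes with a peak in all 14 libraries included Hoxa2 to Hoxa7 and Hoxa9 to Hoxa11, Hoxb2 to Hoxb9, Hoxc6 and Hoxc8 to Hoxc10, and Hoxd3 and Hoxd8 to Hoxd11. No library had a peak at Hoxa13, Hoxb13, Hoxc12, Hoxc13 or Hoxd13. Hoxa13 and Hoxd13 act in limb and genital development, Hoxb13 in the prostate and Hoxc13 in hair. A further 7 genes had a peak in some libraries: Hoxb1, Hoxc4, Hoxc5, Hoxc11, Hoxd1, Hoxd4 and Hoxd12.

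**Figure D1:**
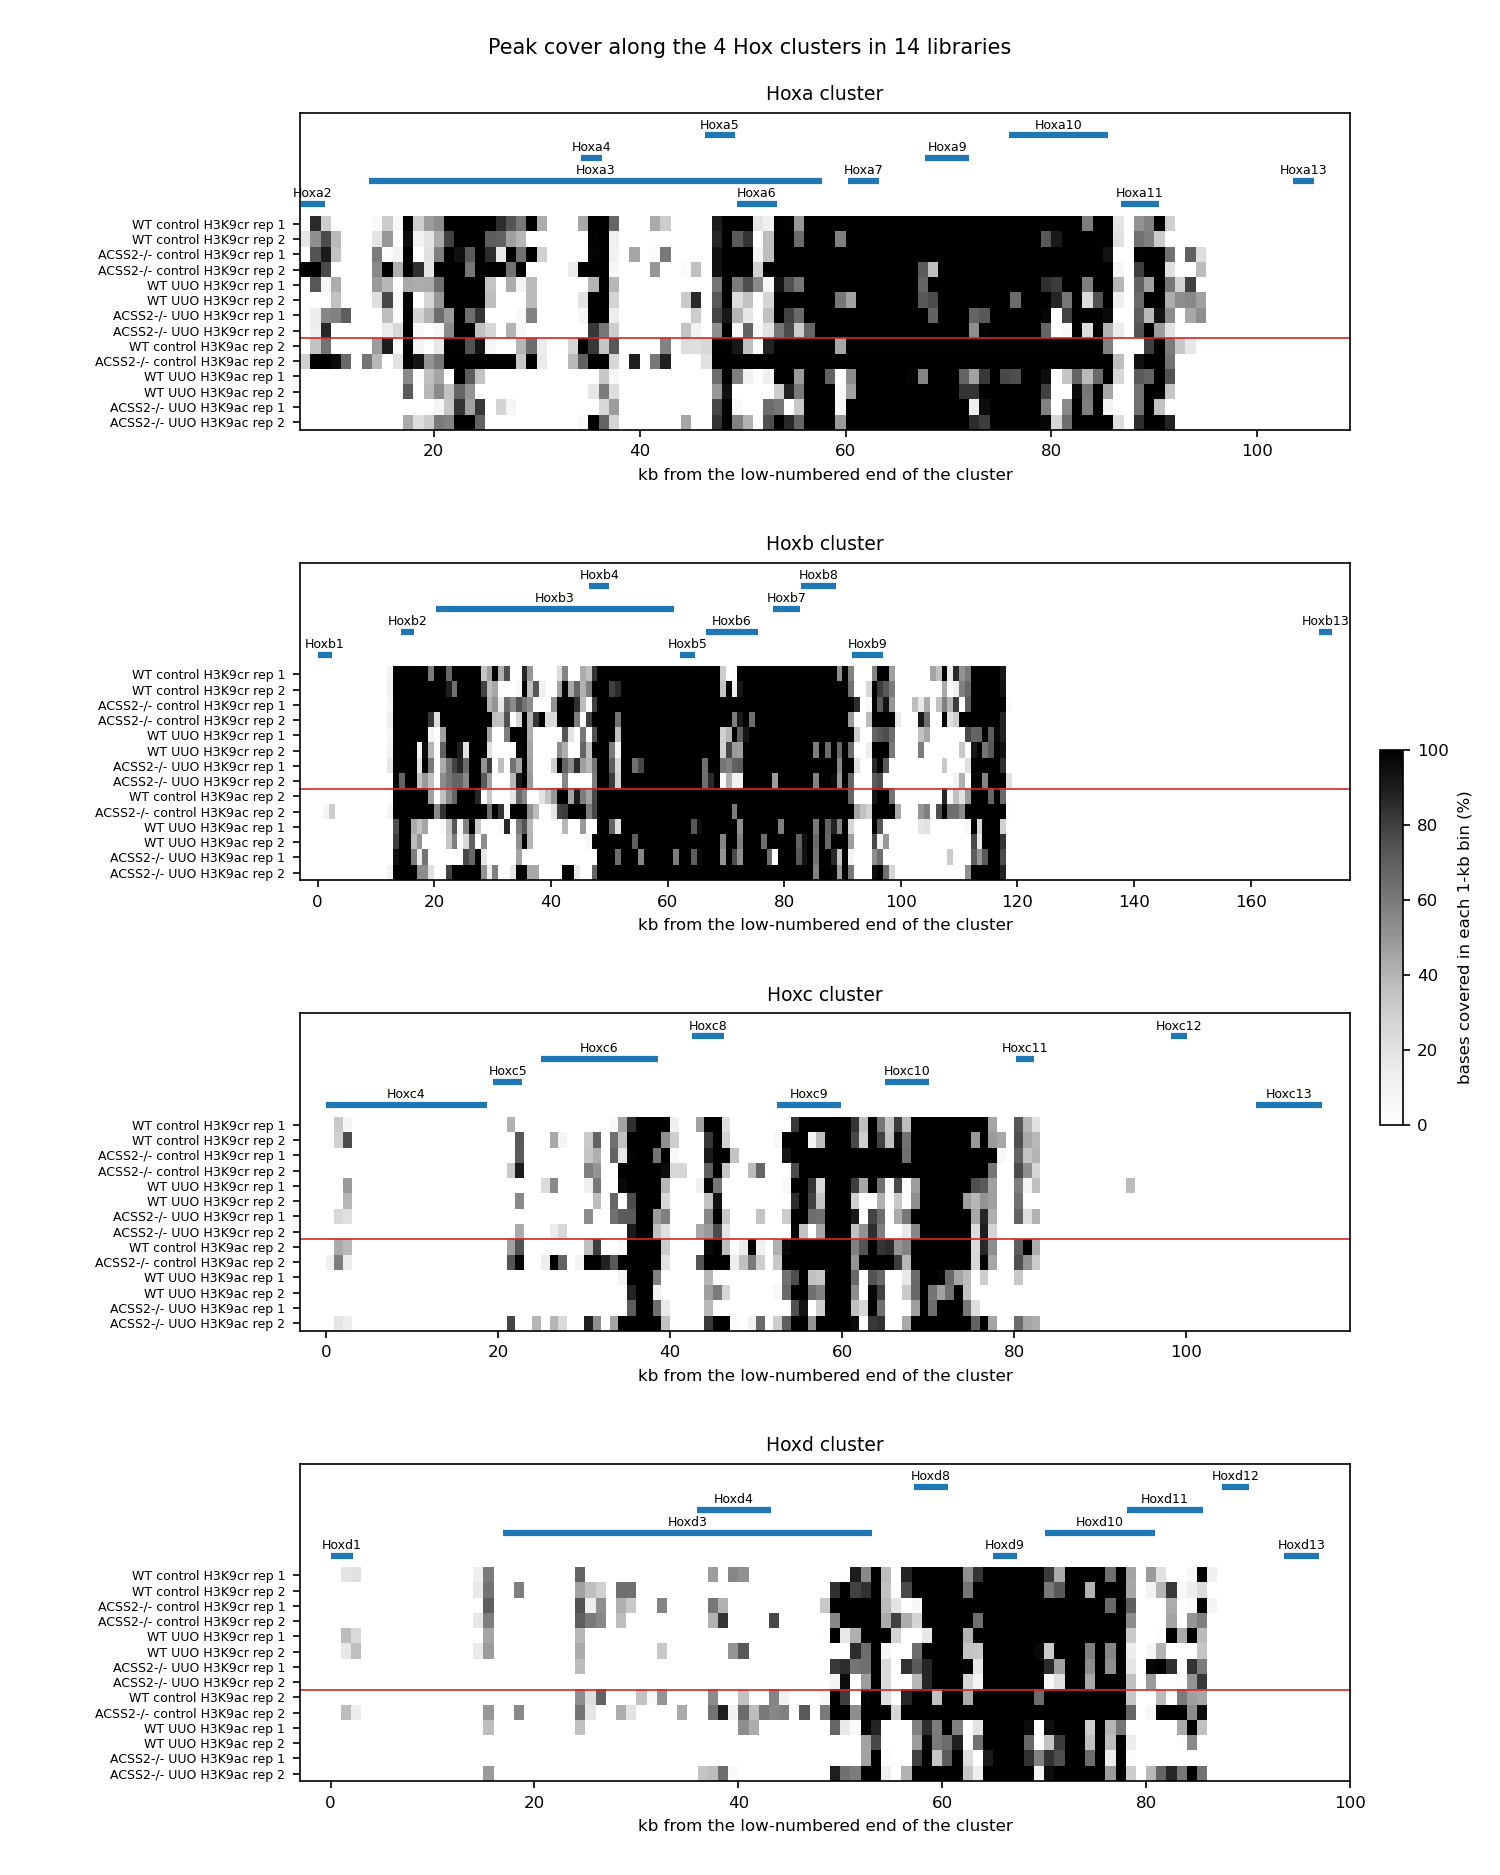
Bases under a peak in 1-kb bins along each Hox cluster (x axis, kb from the low-numbered end of the cluster, Hoxa drawn from Hoxa2 on) in the 14 libraries (rows), with models of the genes described as bars above and a red line between H3K9cr and H3K9ac. Black blocks sit at the middle of each cluster, and no library has cover at the Hox13 genes.

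The cover of the 4 clusters together, with 3 kb added at each end, was far above that of protein-coding genes as a whole. It was 37.2% and 37.3% in the 2 WT control H3K9cr libraries, 41.3% and 42.2% in ACSS2-/- control, 35.1% and 31.8% in WT UUO, and 34.1% and 28.2% in ACSS2-/- UUO. For H3K9ac it was 37.8% in the WT control library, 47.2% in the ACSS2-/- control library, 25.7% and 24.9% in WT UUO, and 23.4% and 35.0% in ACSS2-/- UUO. Cover of protein-coding genes with 3 kb either side was 1.49% to 4.45%, and the ratio of Hox cover to it was 9.28 to 17.3 (median 12.4). Both measures take in whole gene bodies, so gene length and the spacing of genes enter this ratio. Their part in it was not tested. Over the 14 libraries 16.0% of the cluster bases were covered in every library, 45.9% in none and 38.1% in some.

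Single peaks in the clusters were very long. In 13 of the 14 libraries the longest peak of the genome lay in a Hox cluster. The exception was ACSS2-/- control H3K9cr replicate 2, in which the longest Hox peak of 23375 bp came second to a peak of 27854 bp at Pim3, a gene named here after its value was seen. The longest Hox peak measured 12184 to 45645 bp, and the longest peak outside the clusters 9361 to 28363 bp. Among the 10 longest peaks of a library, 1 to 4 lay in Hox clusters. Peaks of at least 4 kb made up 9.84% to 25.5% of the peaks in the clusters, and 0.747% to 5.89% of all peaks. The longest, of 45645 bp, ran over Hoxb3 to Hoxb9 in ACSS2-/- control H3K9cr replicate 1. One of 44447 bp lay over the same 7 genes in the WT control H3K9ac library. The longest Hox peak was 20039 to 45645 bp in the 4 H3K9cr control libraries and 15980 to 19232 bp in the 4 H3K9cr UUO libraries. In the same libraries the longest peak outside the clusters was 15712 to 28363 bp in control and 11690 to 15814 bp after UUO, with overlap. Peaks of at least 4 kb made up 2.34% to 4.37% of all H3K9cr peaks in control and 0.915% to 2.09% after UUO. For H3K9ac the longest Hox peak was 39581 and 44447 bp in control and 12184 to 38009 bp after UUO. Whether the Hox difference goes beyond the library-wide one was not tested.

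**Figure D2:**
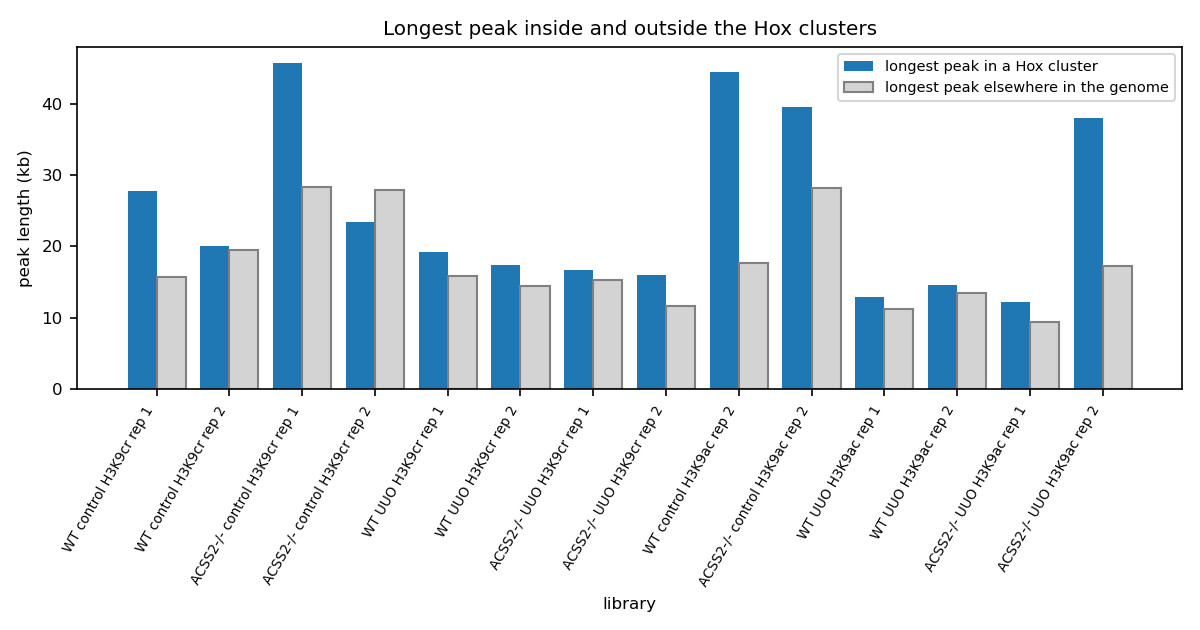
Length in kb (y axis) of the longest peak in a Hox cluster (blue) and of the longest peak elsewhere (grey) in each library (x axis). The blue bar is the taller in 13 of the 14 libraries, all but ACSS2-/- control H3K9cr replicate 2.

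The 4 clusters were covered to different degrees, in the same order in all 14 libraries. Mean H3K9cr cover was 48.3% ± 5.95 (SD, n = 8) for Hoxa, 40.8% ± 4.58 for Hoxb, 27.5% ± 3.87 for Hoxd and 24.5% ± 4.77 for Hoxc. Mean H3K9ac cover was 41.9% ± 12.2 (SD, n = 6) for Hoxa, 36.9% ± 7.97 for Hoxb, 25.4% ± 9.46 for Hoxd and 22.7% ± 9.11 for Hoxc. By a two-sided exact sign-flip permutation test over libraries, each of the 6 pairs of clusters gave p = 0.00781 for H3K9cr and p = 0.03125 for H3K9ac, the smallest the test can give at those numbers (adjusted over 12 pairs, 0.0156 and 0.03125). The smallest gap, Hoxd over Hoxc, was 3.06 percentage points for H3K9cr. For H3K9ac it was 2.65 points. The place of Hoxb depended on the outlying Hoxb13, which is 74.7 kb from Hoxb9: without Hoxb13 and that gap, the difference Hoxa minus Hoxb was −15.3 points for H3K9cr and −16.1 points for H3K9ac, and Hoxb was then the most covered cluster.

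**Figure D3:**
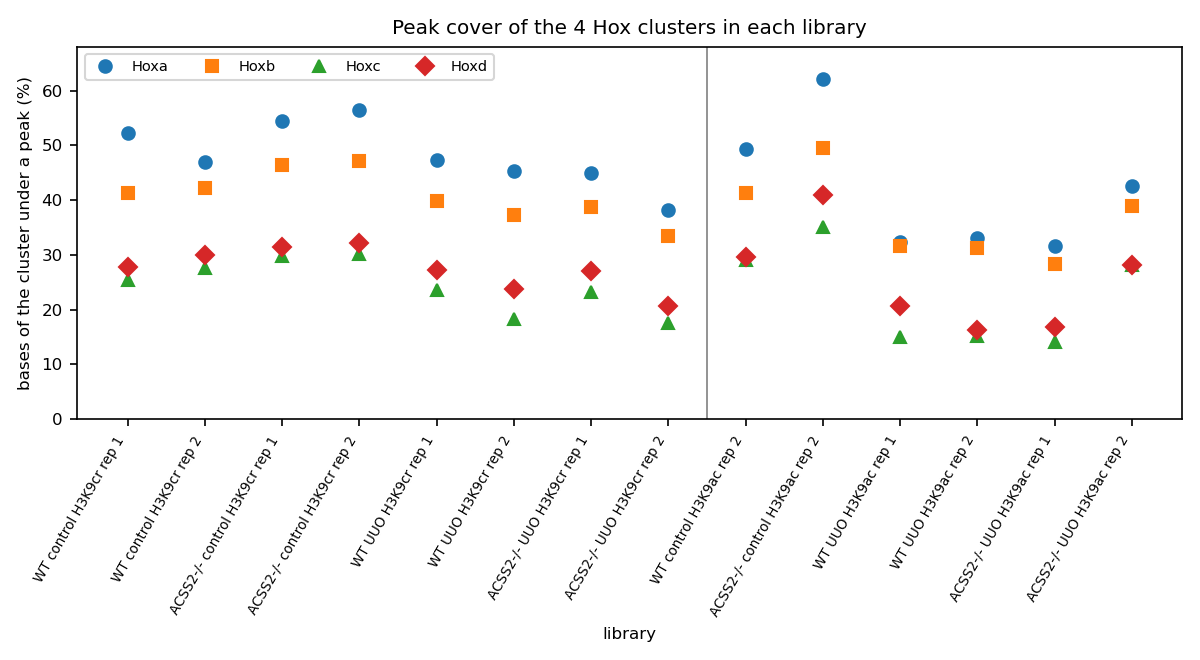
Percent of each Hox cluster under a peak (y axis) in each library (x axis), with H3K9cr libraries left of the line and H3K9ac libraries right of it. Hoxa lies highest and Hoxc lowest in all 14 libraries, while Hoxc and Hoxd differ by only 0.0594 points in ACSS2-/- UUO H3K9ac replicate 2.

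Cover varied with gene number along the clusters, though not in 1 direction. Averaged over the genes of a number, each with 3 kb either side, H3K9cr cover was 52.8% ± 11.3 (SD, n = 8) at the Hox2 genes, 43.4% ± 7.74 at Hox3, 26.5% ± 5.17 at Hox4, 48.3% ± 4.45 at Hox5 and 62.2% ± 8.8 at Hox6. It stood at 98.3% ± 2.7 at the Hox7 genes, 61.6% ± 6.65 at Hox8, 74.4% ± 6.87 at Hox9 and 73.9% ± 9.77 at Hox10. It then dropped to 36.7% ± 5.14 at Hox11, 4.88% ± 1.91 at Hox12 and 0 at Hox13. H3K9ac ran the same way, with 91.8% ± 6.46 (SD, n = 6) at Hox7, 69.9% ± 12.9 at Hox9, 67.6% ± 14.8 at Hox10, 33.7% ± 12.9 at Hox11 and 0 at Hox13. In the order of H3K9cr levels, the neighbours Hox9 and Hox10 differed by less than either SD, and so did Hox6 and Hox8. By the larger SD of the pair, so did Hox8 and Hox2, Hox2 and Hox5, Hox5 and Hox3, and Hox3 and Hox11. Genes of a number share libraries and, in places, peaks.

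Genes numbered 1 to 8 had more cover than genes numbered 9 to 13, by 6.05 points ± 2.34 for H3K9cr (SD, n = 8, higher in 8 of 8 libraries, two-sided exact sign-flip permutation p = 0.00781, adjusted 0.0156) and by 3.62 points ± 3.96 for H3K9ac (SD, n = 6, higher in 6 of 6, exact p = 0.03125, adjusted 0.03125). Here cover was taken over merged windows of 3 kb either side of each gene end. The direction turned when the Hox12 and Hox13 genes were left out of the high numbers (a comparison added after the data were seen): genes 1 to 8 minus genes 9 to 11 gave −15.3 points for H3K9cr and −16.6 points for H3K9ac (exact sign-flip permutation p = 0.00781 and p = 0.03125). It also turned within gene bodies, to −5.76 and −8.998 points.

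The covered block stopped short of each Hox13 gene. From the outermost covered base to the gene it was 8.79 to 13.2 kb in Hoxa, 53.4 to 54.4 kb in Hoxb and 7.42 to 15.5 kb in Hoxd over all 14 libraries. In Hoxc the distance was less even, at 14.2 to 33.7 kb, between that of Hoxa and Hoxd and that of Hoxb. Evx1 and Evx2, the homeobox genes that flank Hoxa13 and Hoxd13, had no peak in any library.

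In Hoxa and Hoxb the most covered genes were close to full for H3K9cr, and in Hoxc and Hoxd the most covered genes varied more. The values that follow are percent of the gene with 3 kb either side. In Hoxa the highest H3K9cr mean was that of Hoxa7, which had 89.6% to 100% cover in the 8 libraries (median 100%), and the lowest was that of Hoxa13 at 0. Hoxa9, known from blood stem cells and leukaemia, was covered to 91.1% to 100% in H3K9cr libraries and to 85.4% to 100% in H3K9ac libraries. In Hoxb the highest was Hoxb5, at 94.3% to 100% for H3K9cr and 91.4% to 100% for H3K9ac. Hoxb7, whose promoter is used to mark the ureteric bud and collecting duct, had 91.6% to 100% H3K9cr cover, and its H3K9ac cover was 100% in both control libraries and 80.7% to 97.0% after UUO. Hoxb13 was at 0. Hoxb1, a gene of the embryonic hindbrain, had no peak in 8 H3K9cr libraries, and its cover was 4.58% in the ACSS2-/- control H3K9ac library and 0 in the other 5.

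In Hoxc the most covered gene for both marks was Hoxc10, one of the Hox10 genes that pattern the kidney stroma. Its H3K9cr cover was 77.0% and 81.9% in WT control, 96.8% and 100% in ACSS2-/- control, 67.1% and 47.9% in WT UUO, and 67.8% and 60.5% in ACSS2-/- UUO, so that the 4 control libraries lay above the 4 UUO libraries. Its H3K9ac cover was 86.0% and 92.3% in the control libraries and 49.7% to 64.5% in the UUO libraries. Hoxc12 and Hoxc13 were at 0. In Hoxd the most covered gene was Hoxd9, at 76.8% to 100% for H3K9cr and 64.9% to 100% for H3K9ac, and Hoxd13 was at 0. Hoxd10, the Hox10 gene of that cluster, had 56.5% to 74.9% and 45.4% to 86.6%. Hoxa10 had 62.0% to 86.7% and 62.8% to 89.2%.

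The genes with low numbers were covered in part. Hoxa3 and Hoxb3, which act in the pharyngeal arches, had 31.7% to 58.5% and 56.5% to 81.8% for H3K9cr, while their paralog Hoxd3 had 6.504% to 25.5%. The long models of these genes also span Hoxa4 to Hoxa6, Hoxb4 and Hoxd4. The 4 genes numbered 4 ranged widely, and mean H3K9cr cover was 69.0% at Hoxb4, 29.7% at Hoxa4, 5.51% at Hoxd4 and 1.65% at Hoxc4. The order was the same for H3K9ac, with 67.2%, 22.7%, 11.02% and 2.499%. Hoxa5, which acts in lung development, had 29.3% to 54.9% for H3K9cr, Hoxb5 at least 94.3%, and Hoxc5 at most 12.9%. Genes of 1 number could lie in the covered block of 1 cluster and outside that of another.

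The share of bases covered in every library also differed between clusters. Over the 14 libraries 20.04% of the Hoxa cluster and 20.7% of the Hoxb cluster were covered in every library, against 9.35% of Hoxc and 11.3% of Hoxd. Bases covered in no library made up 29.0% of Hoxa, 45.7% of Hoxb, 57.7% of Hoxc and 50.5% of Hoxd. Bases covered in some libraries and not in others made up 51.0% of Hoxa, 33.6% of Hoxb, 32.9% of Hoxc and 38.2% of Hoxd, so Hoxa had both more constant cover than Hoxc and Hoxd and the most that varied. The Hoxb shares take in the 74.7 kb gap between Hoxb9 and Hoxb13, where no library had cover within 53.4 kb of Hoxb13. They were not computed without that gap, so Hoxa and Hoxb are not compared like for like.

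The Hox11 genes were unequally covered. Hoxa11 had 41.2% to 62.7% H3K9cr cover, with control and UUO libraries overlapping, and 34.5% to 64.0% H3K9ac cover. Hoxd11 had 25.2% to 50.7% and 15.2% to 60.1%. Hoxc11 had 19.8% to 28.8% H3K9cr cover in the 4 control libraries and 1.47% to 19.3% in the 4 UUO libraries, without overlap, and for H3K9ac 30.5% and 22.8% in control against 0, 0, 3.93% and 22.4% in UUO. The library with 22.4% was ACSS2-/- UUO replicate 2.

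**Figure D4:**
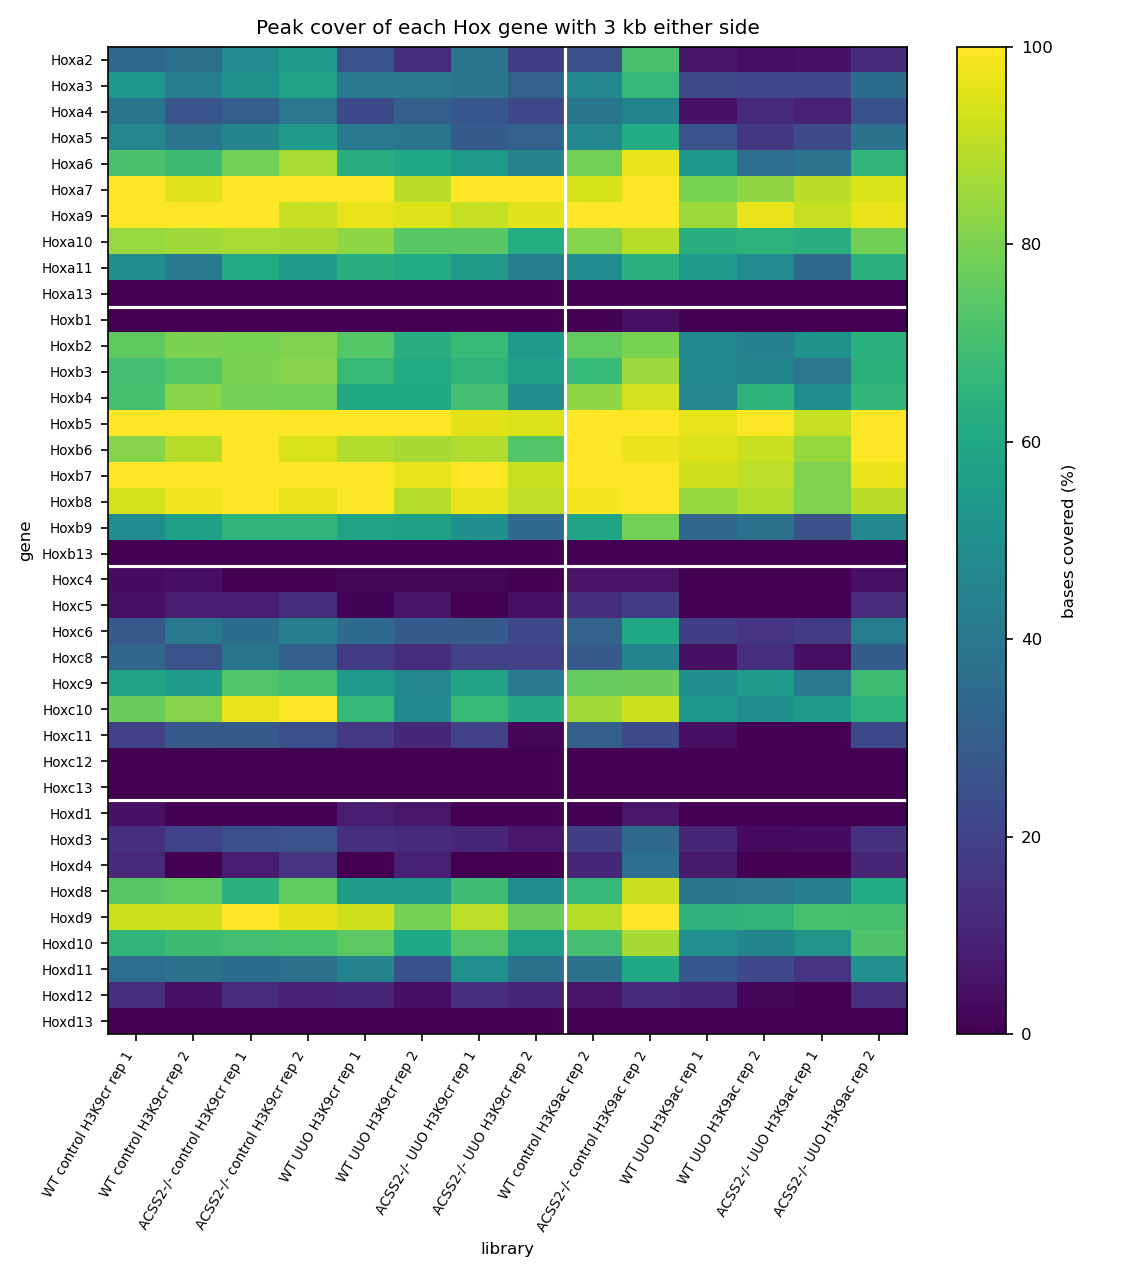
Percent of each Hox gene described with 3 kb either side that lies under a peak (colour), by gene (rows, in 4 clusters) and library (columns, H3K9cr left of the vertical line). The rows from Hoxb5 to Hoxb8 and of Hoxa7, Hoxa9 and Hoxd9 are the brightest, and 5 rows are at 0 throughout.

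UUO was compared with control over both genotypes. In H3K9cr libraries Hox cover was 32.3% ± 3.08 after UUO and 39.5% ± 2.6 in control (SD, n = 4 each). The UUO mean was the lower, with a difference of −7.20 points, the groups did not overlap, and the two-sided exact permutation p = 0.0286 was the smallest that 70 arrangements can give (adjusted over 12 comparisons, 0.343). The difference was −3.80 points in WT and −10.6 points in ACSS2-/-, −4.69 in libraries with peaks at Y-linked genes and −9.71 in those without, with no overlap in any of these sets. Without ACSS2-/- control replicate 2 it was −6.31 points (exact permutation p = 0.0571, adjustment not repeated), and without any other single library p was 0.0286. In H3K9ac libraries cover was 27.2% ± 5.29 after UUO (SD, n = 4) and 42.5% ± 6.59 in control (SD, n = 2), a difference of −15.3 points without overlap (exact permutation p = 0.0667, the smallest of 15 arrangements, adjusted 0.4). The H3K9ac difference was −12.6 points in WT and −18.0 points in ACSS2-/-, each against 1 control library. It was −2.81 points between the 2 libraries with peaks at Y-linked genes (1 of each operation) and −22.5 points in those without (3 after UUO and 1 control). It was −17.9 points without ACSS2-/- UUO replicate 2, the UUO library that stood apart.

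The number of Hox genes with a peak moved less. In H3K9cr libraries it was 31, 31, 32 and 33 in control and 30, 30, 32 and 33 after UUO (difference of means −0.5 genes, exact permutation p = 0.743, adjusted 1). In H3K9ac libraries it was 32 and 34 in control and 27, 28, 30 and 32 after UUO (difference −3.75 genes, exact permutation p = 0.2, adjusted 0.8).

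The direction of the UUO difference depended on the scale. Of all the bases covered in a library, Hox clusters held 3.30 to 4.60 per 1000 in H3K9cr control libraries and 4.07 to 4.94 per 1000 after UUO, and 4.76 and 5.71 per 1000 in H3K9ac control libraries and 5.86 to 7.48 after UUO. On that scale Hox was higher after UUO by 0.15 (log2) for H3K9cr (exact permutation p = 0.286) and by 0.29 for H3K9ac (exact permutation p = 0.133). For H3K9cr the difference was −0.026 in WT, where control and UUO libraries overlapped, and 0.32 in ACSS2-/-, where they did not. For H3K9ac it was 0.24 in WT and 0.35 in ACSS2-/-, each against 1 control library, which in WT alone had peaks at Y-linked genes. Libraries after UUO covered fewer bases of the genome than control libraries in each mark and genotype except WT H3K9cr, where they overlapped. The part of library size and of the change in cell types in these differences was not tested.

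**Figure D5:**
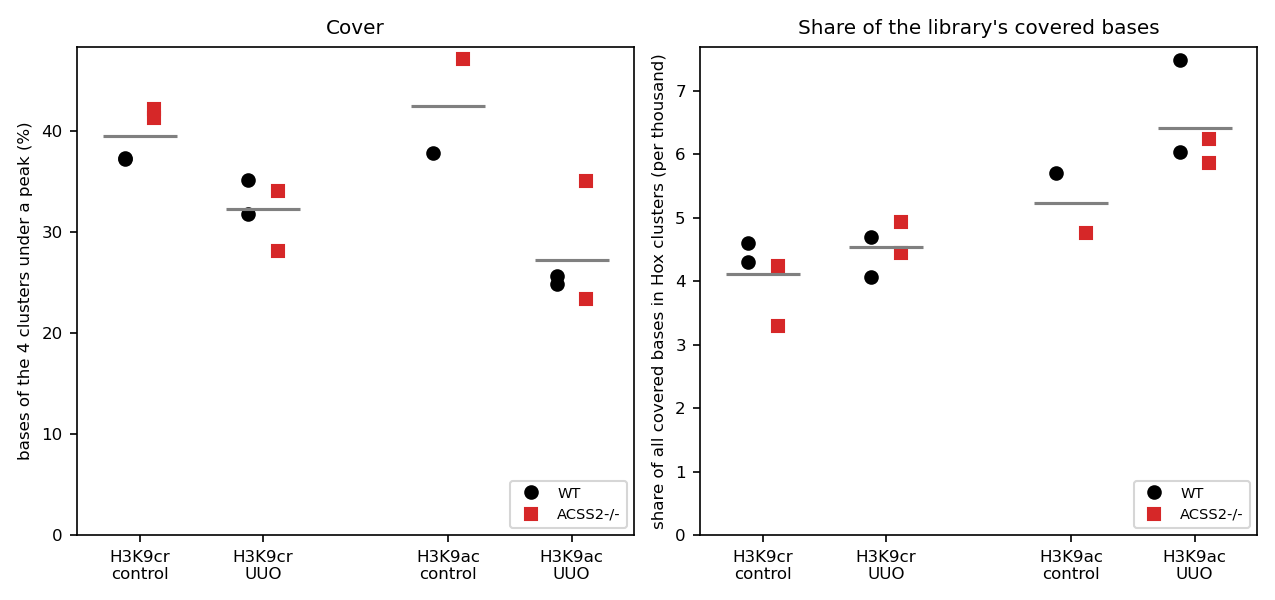
Hox cover in percent (left) and the Hox share of all covered bases per 1000 (right) for each library by mark and operation, with WT as circles, ACSS2-/- as squares and the mean as a line. Mean cover is lower after UUO in both marks, with differences of −7.20 and −15.3 points, while the mean share is higher.

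Single genes were compared by whether the groups overlapped. In H3K9cr libraries 10 of the 33 Hox genes with any cover were lower in all UUO libraries than in all control libraries (16.9% of all protein-coding genes tested) and 0 were higher (2.41%). The 10 were Hoxa3, Hoxa6, Hoxa10, Hoxb2, Hoxb3, Hoxb4, Hoxc8, Hoxc10, Hoxc11 and Hoxd3. Differences among them ran from −28.1 points at Hoxc10 to −10.2 points at Hoxd3. The model of Hoxa3 takes in Hoxa6 and that of Hoxb3 takes in Hoxb4, so these pairs share bases and are not separate counts. Hoxc8, which acts in spinal motor neurons, had 25.5% to 38.3% cover in control and 13.2% to 19.3% after UUO. Hoxb4, known from blood stem cells, had 70.4% to 82.0% in control and 49.6% to 70.3% after UUO. In H3K9ac libraries 23 of 34 genes were lower after UUO without overlap (47.7% of all) and 0 were higher (0.405%), with 2 control libraries. The H3K9ac difference was widest at Hoxa2, a hindbrain and facial gene, with 24.6% and 71.2% in control and 3.55% to 12.2% after UUO.

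Genotype was compared within each operation. In H3K9cr control libraries Hox cover was 41.7% ± 0.629 in ACSS2-/- and 37.3% ± 0.0692 in WT (SD, n = 2 each), higher by 4.46 points without overlap (exact permutation p = 0.333, the smallest that 2 against 2 allows, adjusted 0.8). In H3K9cr UUO libraries it was 31.1% ± 4.2 in ACSS2-/- and 33.5% ± 2.34 in WT, with overlap (difference −2.33 points, exact permutation p = 0.667, n = 2 each), and the difference was 0.633 points without ACSS2-/- UUO replicate 2. In H3K9ac UUO libraries it was 29.2% ± 8.26 and 25.3% ± 0.562, with overlap (difference 3.93 points, exact permutation p = 1, n = 2 each), and the difference was −1.91 points without ACSS2-/- UUO replicate 2. These designs cannot reach p of 0.05. Of 33 Hox genes, 13 were higher in both ACSS2-/- control H3K9cr libraries than in both WT ones (43.7% of all genes) and 1, Hoxc4, was lower (3.69%). After UUO, 8 of 33 were lower in ACSS2-/- for H3K9cr (24.7%) and 1, Hoxc8, was higher (7.43%). For H3K9ac after UUO, 6 of 32 were higher in ACSS2-/- (30% of all) and 0 were lower (2.3%). As a share of covered bases the differences turned, to −0.25 (log2) in control H3K9cr, 0.10 in UUO H3K9cr and −0.15 in UUO H3K9ac libraries.

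Peaks present in every library of a group and in no library of the other were rare. None of the 39 genes was gained or lost between UUO and control for H3K9cr (0.704% of all protein-coding genes) or H3K9ac (1.19%), between genotypes in H3K9cr control (0.827%) or H3K9ac UUO libraries (1.03%), or between marks (0.0411%). Between genotypes in H3K9cr UUO libraries (0.95% of all) the call fell on 1 gene, Hoxd1. Hoxd1, at the low-numbered end of its cluster, had 7.63% and 6.58% cover in WT UUO and 0 in both ACSS2-/- UUO libraries. In control it was 4.90% and 0 in WT and 0 in both ACSS2-/- libraries, and for H3K9ac 6.41% in the ACSS2-/- control library and 0 in the other 5. With the 15988 longest peaks of each library, no gene was called there. Hoxd4, another low-numbered gene, had a peak in 4 of 8 H3K9cr and 4 of 6 H3K9ac libraries and was neither gained nor lost in any of these comparisons. Its H3K9ac cover was 11.7% and 36.5% in control and 0 to 10.6% after UUO, without overlap.

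Within the clusters the 2 marks lay over largely the same bases. Compared within groups of operation and genotype, Hox cover for H3K9cr was higher than for H3K9ac by 1.04 points, averaged over the 4 groups (two-sided exact permutation of mark within groups, p = 0.636, adjusted 1; −0.415 points without ACSS2-/- UUO H3K9ac replicate 1), and the number of genes with a peak was higher by 0.375 (exact permutation p = 0.753, adjusted 1). As a share of all covered bases the clusters held less of H3K9cr than of H3K9ac, with a difference of −0.42 (log2, exact permutation p = 0.00309, the smallest that 324 arrangements can give, not adjusted). In the 6 pairs of the same labelled replicate number it was −0.43 (exact sign-flip permutation p = 0.03125, the smallest possible), and in the 5 pairs of the same number in the peak names −0.34 (p = 0.0625, also the smallest possible). The labelled pairs of WT UUO replicate 1 and ACSS2-/- UUO replicates 1 and 2 each joined a library with peaks at Y-linked genes to one without. The pairs by peak names all matched in this, so the labelled pairs do not all join libraries of 1 sample. H3K9cr lists covered 29.4 to 64.6 Mb and H3K9ac lists 17.7 to 51.1 Mb. The part of list length in the difference in share was not tested. With the 15988 longest peaks of each library the difference in cover was −0.601 points (exact permutation within groups, p = 0.759). Of the bases covered for H3K9ac in the clusters, 73.3% to 94.2% were covered for H3K9cr in a library of the same group. For the genome as a whole the range was 64.3% to 90.7%. Of the bases covered for H3K9cr, whose lists are longer, 64.5% to 94.5% in the clusters and 36.0% to 67.4% in the genome were covered for H3K9ac. The Jaccard index, bases covered for both marks over bases covered for either, was 0.621 to 0.790 in the clusters and 0.348 to 0.491 in the genome over the 12 pairs of libraries. Replicates of 1 mark gave 0.638 to 0.795 in the clusters and 0.525 to 0.615 in the genome over 6 pairs. In the clusters the range for marks and the range for replicates overlapped, with medians of 0.685 and 0.729. Unequal cover of a pair caps the index, at 0.685 to 0.986 for marks and 0.667 to 0.997 for replicates. The lowest replicate value and the lowest cap were those of ACSS2-/- UUO H3K9ac, which holds the library that stood apart. The overlap to be had from the higher cover of the clusters alone was not computed, so clusters and genome are not compared like for like.

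The clusters also held 31 non-coding genes. A peak lay over the body of 12 of them in all 14 libraries, of 14 in some and of 5 in none. The share over all non-coding genes was not computed, so these counts only place the genes inside or outside the covered blocks. Those covered in all included Hotairm1, Hoxaas3, Hoxa11os, Hoxb3os, Hoxb5os and Hoxd3os1. Hotair, a long non-coding RNA between Hoxc11 and Hoxc12, had no peak in any library, nor did Gm30134 and Gm11538 near Hoxb13, Gm11539 in the gap between Hoxb13 and Hoxb9, and Gm14424 in Hoxd. Strand was not available in the peaks, so a gene and its antisense partner cannot be told apart.

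Among them are 6 microRNA genes of 3 families, whose mature forms are printed from RefSeq with the seed (bases 2 to 8) in capitals because the families share it across clusters.
mmu-miR-196b-5p: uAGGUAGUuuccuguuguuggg
mmu-miR-196a-5p: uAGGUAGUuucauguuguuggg
mmu-miR-10a-5p: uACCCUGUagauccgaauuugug
mmu-miR-10b-5p: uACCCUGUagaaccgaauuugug
miR-196a and miR-196b share the seed AGGUAGU and differ by A12C, and miR-10a and miR-10b share ACCCUGU and differ by U12A, counted from 1 at the 5′ end with miR-196a and miR-10a first. Mir196b, between Hoxa9 and Hoxa10, lay under a peak in 8 H3K9cr and 6 H3K9ac libraries, and Mir196a-2, between Hoxc9 and Hoxc10, in 7 and 6. The third gene of that seed, Mir196a-1, which makes the same mature sequence as Mir196a-2 and lies beyond Hoxb9, was covered in 1 and 1. Mir10a near Hoxb4 was covered in 4 and 5 libraries, and Mir10b near Hoxd4 in 0 and 1, the one being ACSS2-/- UUO H3K9ac replicate 2. Mir615, of another seed, was covered in 1 and 1.

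Peaks at partners and regulators of Hox genes were counted in the same way, and are read against the 53.8% of all protein-coding genes with a peak in every H3K9cr library and the 32.4% with one in none. Of 9 genes of Hox cofactors (Pbx, Meis and Pknox, which bind DNA with Hox proteins), 8 had a peak in every H3K9cr library, and Meis3 in 7 of 8. Of 21 genes that regulate Hox chromatin (among them Kmt2a, Ezh2, Suz12 and Rnf2), 17 had a peak in every H3K9cr library, and 4 had none within 3 kb of an end: Cdx1, Cdx2, Cdx4 and Cbx7. The Cdx genes, which activate Hox genes in the embryonic trunk, had no H3K9cr cover at all, while Cbx7 had peaks farther inside the gene (mean H3K9cr cover 11.6%). Of 21 transcription factors of the nephron lineage, 14 had a peak in every H3K9cr library, among them Pax2, Pax8, Lhx1 and Emx2, and 2 had none, Six2 and Eya1, which mark nephron progenitors. Mean H3K9cr cover of Emx2 with 3 kb either side was 81.5%.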

How the data were processed

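ChIP-seq peak lists of 14 mouse kidney libraries were used, 8 of H3K9cr and 6 of H3K9ac, grouped by their labels. According to the study's methods and the processing notes, the authors aligned reads with Bowtie2 to mm10, removed low-quality and duplicate alignments, called peaks with MACS2 and annotated them with ChIPseeker, and deposited 1 list per library. Versions are not given in the sources used here. The deposited lists hold positions and names without a score, height or count, so depth is unknown and no interval or floor is given. The labels do not say that replicates came from separate mice. In each H3K9cr group and in ACSS2-/- UUO H3K9ac, 1 replicate had peaks at all 4 Y-linked genes checked and the other at none. Those replicates are therefore not repeats of 1 sample. In WT UUO H3K9ac neither replicate had such peaks. The p-values measure the spread between these libraries, part of which may be technical.

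From the lists, covered bases (overlaps merged) and genes with a peak (at least 1 bp within 3 kb of either gene end) were computed with Python 3.11.15, NumPy 2.4.6, pandas 2.3.3 and SciPy 1.17.1 against RefSeq GRCm38.p6 (49943 genes placed on chromosomes), the assembly that mm10 names. The RefSeq table gives no strand. Cover of 12 cluster and library combinations was checked against bedtools 2.31.1, with 0 differing, and the tests were tested on simulated data. Contrasts used two-sided exact permutations over libraries, clusters and gene numbers exact sign-flips over libraries, adjusted by Benjamini-Hochberg within families of 12, 12 and 2 tests. The Hox genes, the other gene lists and the tests were chosen with earlier results of these data known. All 39 Hox genes entered every count and test, and some items are not reported here. Genes given values are those with a peak in all or no libraries of a mark, those gained or lost, the highest and lowest of each cluster and those numbered 10 and 11, and the rest as examples chosen after their values were seen.

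Alternatives were windows of 1 kb, gene bodies, the longest peaks in the number of the smallest list, 50% overlap, the share of covered bases, other gene number splits, leaving out each library, and pairing by replicate number. Splits by peaks at Y-linked genes, pairing of marks by the number in the peak names, leaving out Hoxb13, and genes 9 to 11 were added after seeing the data.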

Additional observations from a re-analysis of the deposited data

Results flagged for a closer look

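In the 4 H3K9ac UUO libraries, ACSS2-/- UUO replicate 2 stood farther from the others than Dixon's 95% limit in 2 clusters. Its Hoxa cover was 42.5% against 31.6% to 33.1% in the other 3, and its Hoxc cover was 28.1% against 14.02% to 15.3%. The same library had 24571 peaks against 15988 to 18580, and peaks at Y-linked genes that the other 3 lacked, and the part of these in the difference was not tested. In all 18 groups were examined, of which chance flags about 1 in 20.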

How the results depend on the processing

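The lists give positions only, so the calls rest on the authors' peak threshold. Of 144 settings other than leaving out a library, 116 left direction and call as they were, and of 178 that left out 1 library, 128 did. As the log2 share of the library's covered length, the UUO difference was 0.15 (H3K9cr) and 0.29 (H3K9ac), the genotype differences 0.10 (H3K9cr UUO), −0.25 (H3K9cr control) and −0.15 (H3K9ac UUO), and the mark difference −0.42, all opposite in sign to cover. With the longest peaks of each list, the mark differences turned to −0.601 points of cover and −1.25 genes, the Hoxc minus Hoxd H3K9ac difference was −1.35 points (exact permutation p = 0.312), the genotype difference in genes with a peak in H3K9cr control was 0.5, and 0 genes were lost between genotypes in H3K9cr UUO libraries. A 1 kb window gave 0.5 for that genotype difference in genes and 2 genes, Hoxa2 and Hoxc5, lost between control and UUO for H3K9ac. With an overlap of 50%, 1 gene, Hoxc4, was lost between genotypes in H3K9cr control. In gene bodies, Hoxa minus Hoxb was −14.9 points for H3K9cr and −17.1 for H3K9ac, Hoxc minus Hoxd for H3K9ac −2.15 (exact permutation p = 0.188), and genes 1 to 8 minus 9 to 13 −5.76 and −8.998. Without Hoxb13 and its gap Hoxa minus Hoxb was −15.3 and −16.1, and genes 1 to 8 minus 9 to 11 gave −15.3 and −16.6. In libraries with peaks at Y-linked genes the mark differences were −0.718 points and −1.5 genes. Over those libraries the H3K9cr UUO difference was −4.69 points, and over the rest −9.71 (exact permutation p = 0.333 for each, the smallest 2 against 2 allows).

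With a replicate block, in pairs of the same number, the H3K9cr UUO difference stayed at −7.20 points with p = 0.125 (exact sign-flip permutation, the smallest 4 pairs allow), and it changed no other call. Within a mark, deviations of the libraries labelled replicate 1 over Hox genes correlated at −0.314 to 0.438 between groups. With 2 libraries in a group these values cannot tell whether the numbers pair the libraries. The study states that both marks were run on shared samples. Between marks, UUO libraries of the same labelled number correlated at 0.14 in WT and −0.53 in ACSS2-/-, and the ACSS2-/- value was 0.53 by the number in the peak names. With 2 libraries per mark the deviations mirror each other, so swapping the pairs could only turn the sign. In pairs by label the mark difference was 2.47 points, and by the number in the peak names (added after seeing the data) 1.07 points (exact sign-flip permutation p = 0.469 and p = 0.75). The pairs by label did not all match in peaks at Y-linked genes, and the pairs by peak names did.

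Leaving out 1 library gave −8.14 to −5.82 points for UUO in H3K9cr, −5.30 to 0.633 and −1.91 to 9.77 for genotype in UUO (H3K9cr, H3K9ac) and −0.415 to 3.20 for the mark. In genes with a peak it gave −1.5 to 0.5 for genotype in H3K9cr control, −2 to 3 in H3K9ac UUO and −0.25 to 1.33 for the mark. With 5 H3K9ac libraries the exact sign-flip permutation cannot go below p = 0.0625, and the cluster differences were 3.47 to 5.86 (Hoxa minus Hoxb), 17.5 to 20.1 (Hoxa minus Hoxc), 15.5 to 17.4 (Hoxa minus Hoxd), 13.6 to 14.8 (Hoxb minus Hoxc), 10.8 to 12.03 (Hoxb minus Hoxd) and −3.17 to −2.01 (Hoxc minus Hoxd), and genes 1 to 8 minus 9 to 13 gave 2.13 to 4.22. The cause of these changes was not tested.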
